A study of Arabidopsis thaliana with 12 samples.

Results

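RNA crosslinked to CFP-FIB2, a fusion of the Arabidopsis fibrillarin FIB2 to cyan fluorescent protein, was compared with RNA recovered from plants expressing green fluorescent protein (GFP) alone. The comparison used the 4 CFP-FIB2 and the 4 GFP peak lists, assigned by their sample titles: 8 of the 12 libraries of the series, with 696177 of its 1037099 peaks. All seedlings were Col-0, 14 days old and crosslinked with ultraviolet light, and the libraries came from crosslinking and immunoprecipitation (CLIP). The labels name neither the promoter of the fusions nor a line number, and they do not say whether endogenous FIB1 and FIB2 were present. A library with CFP alone is not among the 12, so the fluorescent tag differs between the groups along with FIB2. Nothing in the labels says that replicates came from separate plants, and the spread behind every p-value is that between libraries, possibly a technical one.

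Fibrillarin is the enzyme inside box C/D small nucleolar RNPs that adds methyl groups to ribose in ribosomal RNA. Each box C/D snoRNA folds its conserved C and D boxes into the binding platform of the core proteins, and the bases just before box D, or before an internal copy of it called D′, pair with the target RNA. A second family, the H/ACA snoRNAs, guides pseudouridylation with dyskerin (NAP57 in plants) in place of fibrillarin.

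Among snoRNA genes whose 4 CFP-FIB2 libraries all lay above the 4 GFP libraries, the 10 with the largest rise were box C/D genes, and 6 of them are shown because the values below turn on them. They are genomic sequences of RefSeq TAIR10.1, written 5′ to 3′ on the sense strand, with box C and box D in capitals. They come from chr1:6941285-6941373 (plus strand), chr3:5387184-5387268 (plus), chr1:28212518-28212603 (plus), chr5:21295736-21295809 (plus), chr1:9076304-9076386 (minus) and chr2:17923081-17923157 (plus), in the order printed.
AT1G20015: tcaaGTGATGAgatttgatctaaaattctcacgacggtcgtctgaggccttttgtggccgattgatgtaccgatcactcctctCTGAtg
AT3G03175: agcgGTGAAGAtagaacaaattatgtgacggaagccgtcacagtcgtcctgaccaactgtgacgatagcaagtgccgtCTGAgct
AT1G75166: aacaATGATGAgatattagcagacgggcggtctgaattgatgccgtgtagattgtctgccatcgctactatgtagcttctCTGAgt
AT5G52471 (U60.1F): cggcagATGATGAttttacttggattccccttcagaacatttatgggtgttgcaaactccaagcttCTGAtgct
AT1G05993: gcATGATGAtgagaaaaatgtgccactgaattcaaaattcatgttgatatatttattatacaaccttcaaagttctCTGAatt
AT2G43137: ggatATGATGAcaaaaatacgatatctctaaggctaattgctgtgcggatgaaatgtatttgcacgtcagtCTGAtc
In AT2G43137 the 14 bases before box D are a perfect complement of the rRNA precursor in the 25S region, and in AT1G05993 and AT3G03175 the complements are 13 and 11 bases long. The guide rule places the target at the fifth base before the box, which for these 3 genes pairs with bases 1073, 1667 and 1706 counted from the end of the 5.8S gene. AT1G75166 carries a 10-base complement of 18S rRNA before an internal box, and no complement of at least 10 bases was found before a box of AT1G20015 or U60.1F. Over the 152 tested box C/D genes with both boxes located, 79 (52.0%) had such a complement, 50 to the 25S region, 25 to 18S and 4 to 5.8S rRNA. The median log2 difference between CFP-FIB2 and GFP was 3.97 with a complement and 4.16 without one, beside 0.17 for all regions. With the library sets described below, 40 of 79 and 41 of 73 genes were called, against 0.382% of all regions.

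Reads named for the FIB1 and FIB2 genes came mostly from snoRNA genes inside them. Values are RPM, the reads of a region relative to all reads in peaks of the library, scaled by trimmed mean of M-values (TMM). Peaks named FIB1 (AT5G52470) held 22.3, 34.3, 5.02 and 20.3 RPM in GFP replicates 1 to 4 and 79.5, 248, 180 and 248 RPM in CFP-FIB2 replicates 1 to 4, and 99.2% of these reads lay over the intronic snoRNA U60.1F. All 4 CFP-FIB2 values were above all 4 GFP values (log2 difference 3.27 ± 1.11, SE). FIB2 peaks (AT4G25630) held 1.31, 8.22, 6.97 and 4.93 RPM with GFP and 3.18, 16.8, 30.7 and 40.3 RPM with CFP-FIB2. These groups overlapped, and 86.5% of the reads lay over the snoRNA gene AT4G25631 (log2 difference 1.65 ± 1.15). Neither name passed the threshold in limma (adjusted p = 1.0 for both, and 0.0825 and 0.917 with the library sets described next). Peak lists from RNA cannot show how much of either fusion protein was present.

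The lists of the 8 libraries held 37832 to 131708 peaks, with 2811379 to 12438185 reads once overlapping peaks were reduced to 1. A clustering of all 12 libraries of the series, by correlation of 876 well covered mRNAs, was cut into 3 sets that no label names. The number 3 was fixed and not estimated, and the sets were drawn from the same data as the tests that use them. Set A held GFP replicates 1 and 2 with CFP-FIB2 replicate 1, set B held GFP replicate 3 with CFP-FIB2 replicate 2, and set C held GFP replicate 4 with CFP-FIB2 replicates 3 and 4. The libraries titled GFP-FIB1 lay in set A (replicate 1), set B (replicate 2) and set C (replicates 3 and 4). All libraries numbered 1 thus lay in set A and all numbered 4 in set C, so the sets followed the replicate numbers in part. Over all 12 libraries the correlation was 0.57 to 0.95 inside sets and at most 0.44 between them. One tRNA gene took 32.8% of the reads of CFP-FIB2 replicate 4, and TMM scaling, which leaves out the most extreme ratios, gave that library a factor of 0.345. The scaling moved the median log2 difference of all regions from −0.06 without TMM to 0.17, so class medians below are best read beside 0.17.

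Across 31640 named regions, limma without the sets called 0 higher (0% of those tested) and 0 lower. At an unadjusted p under 0.05 there were 660 higher (2.09%) and 145 lower (0.458%) regions, and the smallest adjusted p was 0.152, for U60.1F. With the 3 sets as a term the same test called 121 regions higher (0.382%) and 1 lower (0.00316%). In 455 regions (1.44%) all 4 CFP-FIB2 values lay above all 4 GFP values, and in 152 (0.48%) all lay below. In 98 of 77644 regions (0.126%) a peak was called in 4 CFP-FIB2 and 0 GFP libraries, against 22 (0.0283%) the other way. Fisher's exact test gave an unadjusted p of 0.0286 for each, the smallest that 4 against 4 libraries allow. With that floor, 98 and 22 of 77644 regions could not pass adjustment, so the 0 past it decides nothing. The 121 calls became 66 without CFP-FIB2 replicate 1, 45 without CFP-FIB2 replicate 2, 79 without GFP replicate 1, 45 without GFP replicate 3 and 66 without GFP replicate 4.

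Of the 121 regions higher with the set term, 95 were snoRNA genes. They comprised 81 box C/D genes, 13 with no assigned box and 1 H/ACA gene. Of the other 26 regions, 16 had over 50% of their reads over a snoRNA gene, 1 had a smaller part there and 9 had none. The 1 region that fell was a low intergenic one on chromosome 5.

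**Figure D1:**
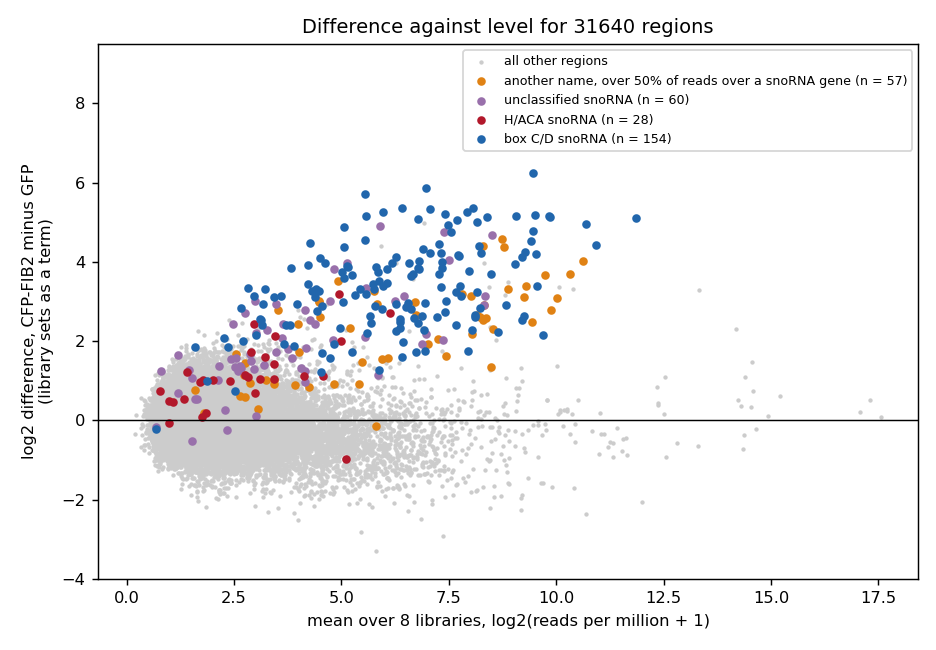
Log2 difference between CFP-FIB2 and GFP with library sets as a term (vertical axis) against the mean level over the 8 libraries (horizontal axis, log2 of RPM + 1), 1 point per region. Box C/D snoRNA genes and names whose reads lie over snoRNA genes sit mostly above 1, and the other regions spread around 0.

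Most box C/D genes were higher with CFP-FIB2. Of 166 such genes in the annotation 161 had a peak and 154 passed the filter, and 153 of the 154 had a log2 difference above 0, as did 60.8% of all regions (51.2% with the set term). The median was 4.05 (quartiles 3.54 to 4.92), beside 0.17 for all regions, and 3.32 beside 0.02 with the set term. Complete separation upward was found in 68 of the 154 (44.2%, against 1.44% of all regions), and 81 (52.6%) were called with the set term, against 0.382%. The 81 became 48 without CFP-FIB2 replicate 1, 34 without CFP-FIB2 replicate 2, 35 without GFP replicate 3 and 51 without GFP replicate 4. Because a gene with no peak counts as 0, the 33 box C/D genes with a peak in all 4 GFP libraries were also taken alone: their median was 3.81, and 3.39 with the set term. The 95 genes sharing no 25-nt word with another place in the genome had a median of 4.13, and the 20 sharing over 50% of their words 3.93. Genes inside protein-coding genes (25, median 4.52) and outside them (129, median 3.97) both lay far above the background. The single member below 0 was AT4G06250, with at most 2.57 RPM in any library.

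The rise was present in each set of libraries. Comparing CFP-FIB2 only with GFP of the same set gave a median log2 difference over the box C/D genes of 2.70 in set A, 4.80 in set B and 3.19 in set C. In 128 of 154 genes (83.1%) CFP-FIB2 was higher in all 3 sets, which held for 12% of all regions, and in 0 of them was it lower in all 3, against 10.3%.

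AT1G20015 had the largest difference among the separated snoRNA genes. It held 0, 10.1, 8.16 and 39.7 RPM in GFP replicates 1 to 4, and 390, 3994, 592 and 620 RPM in CFP-FIB2 replicates 1 to 4. The lowest CFP-FIB2 library stood well above the highest GFP library (log2 difference 6.76 ± 1.36, SE; limma adjusted p = 0.49, and 6.24 ± 0.83 with adjusted p = 0.000804 with the set term).

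AT3G03175, whose box C differs at 1 base from the consensus, had 0, 1.71, 39.5 and 118 RPM with GFP. With CFP-FIB2 it had 152, 3709, 919 and 874 RPM. The 2 groups did not overlap, and the set-term difference was 5.17 ± 0.67 (limma adjusted p = 0.000649). AT1G75166 went from 0, 13.5, 9.18 and 22.8 RPM to 98.8, 3223, 392 and 514 RPM, again without overlap. Its set-term difference of 5.15 ± 1.00 (limma adjusted p = 0.0189) lost its call without any one of CFP-FIB2 replicates 1 and 2 or GFP replicates 1, 3 and 4 (adjusted p 0.0846 to 0.238).

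U60.1F lies in an intron of FIB1 and had the smallest adjusted p of all regions without the set term. Peaks carrying its own name held 0, 0, 0 and 1.60 RPM with GFP, and 73.4, 99.3, 39.9 and 156 RPM with CFP-FIB2 (set-term difference 5.71 ± 0.60, limma adjusted p = 0.000135). Reads over the same bases were partly filed under FIB1, however, and when every peak over the snoRNA was given to it the set-term difference was 3.21 with an adjusted p of 0.102. The size of the rise at U60.1F therefore depends on how a peak over both genes is named. AT2G43137 sits in an intron of AT2G43110, which encodes a subunit of a U3-containing pre-ribosomal complex. It held 0, 0, 3.06 and 4.06 RPM with GFP and 53.1, 923, 41.2 and 44.1 RPM with CFP-FIB2. Its call held with the peaks so assigned (set-term difference 5.34 ± 0.65, adjusted p = 0.000463, and 4.89 with adjusted p = 0.00246).

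AT1G05993 was at 0, 0, 28 and 20 RPM with GFP and at 98.4, 1299, 254 and 234 RPM with CFP-FIB2 (set-term difference 5.25 ± 0.59, adjusted p = 0.000222). AT1G06263, inside AT1G29465, was at 0, 1.20, 0 and 5.37 RPM and at 35, 490, 63.1 and 77.8 RPM (5.35 ± 0.73, adjusted p = 0.00114). Of its 25-nt words 56.1% occur elsewhere in the genome, so reads of this gene could belong to a copy. AT1G09883 (chr1:29911741-29911812, minus strand) had a peak in every GFP library, with 1.05, 9.08, 2.55 and 21.8 RPM, and 150, 395, 501 and 578 RPM with CFP-FIB2 (5.06 ± 0.75, adjusted p = 0.00208). CFP-FIB2 replicate 4 was the highest library here and at U60.1F, whereas replicate 2 was the highest for 8 of the 10 named genes.

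AT1G06237 and AT3G47348 complete the 10 named genes. AT1G06237 reached 250 RPM in GFP replicate 4 and ranged from 321 to 3576 RPM over CFP-FIB2 (set-term difference 5.16 ± 0.85, adjusted p = 0.00439). AT3G47348 ranged from 0 to 114 RPM with GFP and from 117 to 2746 RPM with CFP-FIB2 (4.77 ± 0.84, adjusted p = 0.00868). Both calls were lost without CFP-FIB2 replicate 1, CFP-FIB2 replicate 2 or GFP replicate 3, with adjusted p of 0.0584 to 0.126. Lack of overlap between the groups was a condition for naming these 10 genes and is no finding about them.

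**Figure D2:**
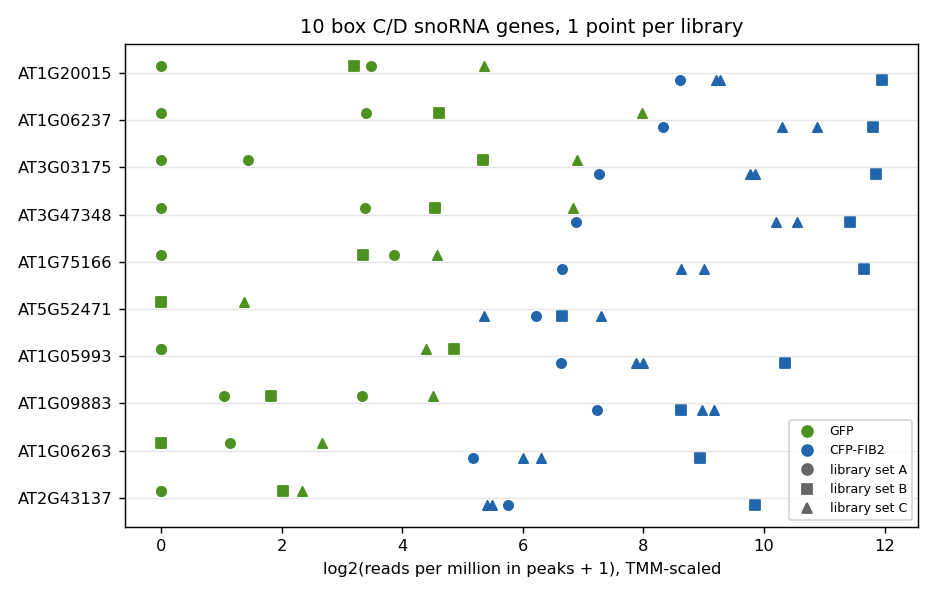
Level of the 10 named box C/D snoRNA genes in each library (log2 of RPM + 1), with GFP and CFP-FIB2 in separate rows per gene and the marker giving the library set. GFP libraries without a peak lie at 0, where points coincide, and CFP-FIB2 replicate 2 of set B is the highest point for most genes.

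As a share of the reads in peaks, box C/D snoRNA took 0.0514%, 0.223%, 0.328% and 0.669% in GFP replicates 1 to 4, and 1.12%, 15.4%, 7.06% and 2.49% in CFP-FIB2 replicates 1 to 4. The groups did not overlap, and the mean was 0.318% ± 0.260 against 6.52% ± 6.45 (SD, n = 4 each; exact permutation p = 0.0286, the smallest 4 against 4 allows, and 0.229 adjusted over 16 RNA classes). Without any one GFP replicate the exact p of the difference in means was 0.171, although the groups still did not overlap. Permuting only within library sets, over the 18 orders possible, the p was 0.167. The difference of 6.20 points was 3.24 without CFP-FIB2 replicate 2, and with the dominant tRNA out of the denominator it was 6.74. Unclassified snoRNA also separated the groups, with 0.0440% ± 0.0210 and 0.519% ± 0.470 at the same p. H/ACA snoRNA overlapped, with 0.0210% ± 0.0117 and 0.0703% ± 0.0823 (exact permutation p = 0.286, adjusted 0.457). None of the other 13 classes separated the groups, and their unadjusted p ranged upward from 0.0857, for nuclear mRNAs, which held 14.7% ± 2.25 with GFP and 10.03% ± 4.23 with CFP-FIB2.

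**Figure D3:**
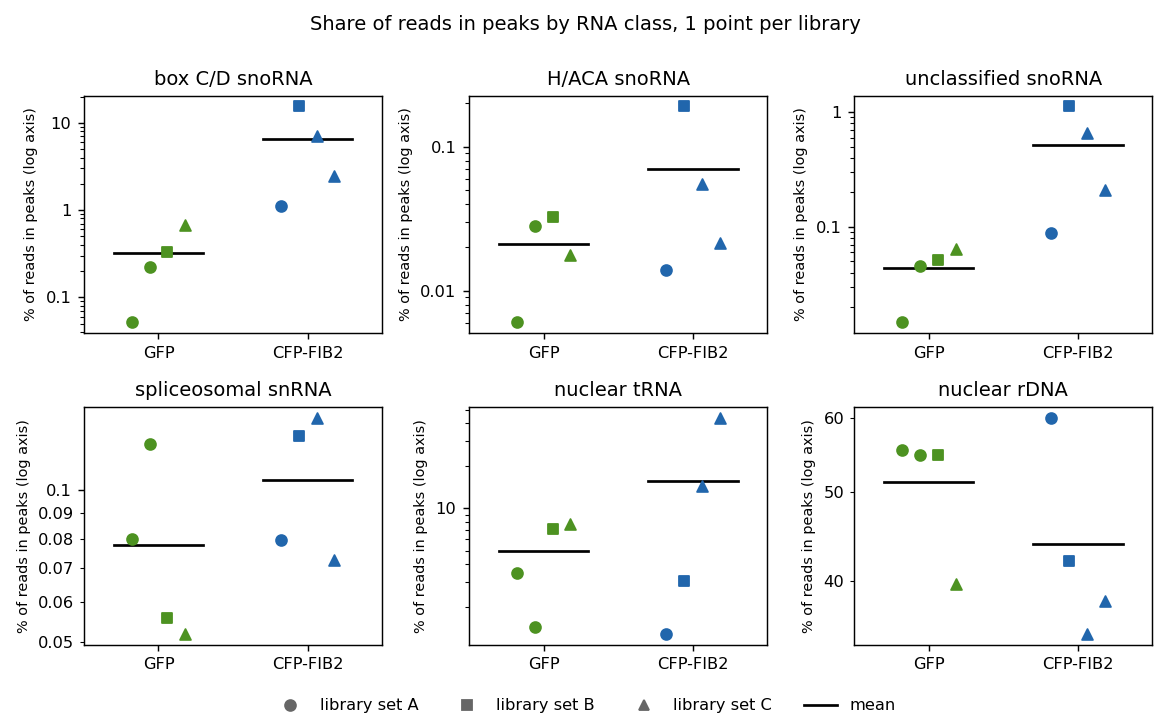
Share of reads in peaks (percent, log axis) of 6 RNA classes, 1 point per library, with the group mean as a line and the marker giving the library set. Box C/D and unclassified snoRNA show no overlap between GFP and CFP-FIB2, and the other 4 classes overlap.

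On the box C/D genes, both groups had reads at the 5′ end and over the later part of the RNA, and a smaller share of the CFP-FIB2 peaks touched box D. For the 161 genes with both boxes located, peaks averaged 27.5, 13.1, 13.5 and 13.6 nt in GFP replicates 1 to 4, and 6.79, 9.74, 9.36 and 10.5 nt in CFP-FIB2 replicates 1 to 4. All CFP-FIB2 means were below all GFP means (16.9 ± 7.06 against 9.10 ± 1.61 nt, SD, n = 4; exact permutation p = 0.0286, adjusted 0.171 over 6 measures). Permuting only within library sets, the p for the mean width was 0.167. Median widths overlapped between the groups (12.25 ± 7.27 against 7 ± 1.41 nt, exact permutation p = 0.143). GFP replicate 1 had only 71 peaks there, against 241 to 512 in the other libraries. The median reads per peak were 25.5 ± 11.4 and 109 ± 74.2, with overlap (exact permutation p = 0.0857).

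The read-weighted position, from 0 at the 5′ end to 1 at the 3′ end, was 0.480 ± 0.0733 with GFP and 0.532 ± 0.138 with CFP-FIB2 (exact permutation p = 0.486). Peaks touching box D held 25.0%, 10.99%, 4.24% and 5.46% of the reads in the GFP libraries and 0.494%, 6.55%, 0.996% and 0.766% in the CFP-FIB2 libraries. CFP-FIB2 replicate 2 overlapped the GFP range, and the difference did not pass (11.4 ± 9.498 against 2.20 ± 2.90, exact permutation p = 0.0857, adjusted 0.171). Counting each peak once, 36.6%, 13.3%, 9.26% and 11.8% of the peaks touched box D in the GFP libraries and 2.04%, 5.87%, 2.93% and 4.34% in the CFP-FIB2 libraries. These groups did not overlap (17.7% ± 12.7 against 3.79% ± 1.68, exact permutation p = 0.0286, outside the 6 adjusted measures). Permuted only within library sets, the p was 0.167. In the last of 20 bins along the gene, every CFP-FIB2 library (0.209% to 0.974% of the reads, genes weighted equally) was likewise below every GFP library (1.2% to 3.22%). For box C the shares were 21.4% ± 15.01 and 13.1% ± 8.95 (exact permutation p = 0.4). Peak width and the chance of touching a box move together, and their relation was not tested.

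**Figure D4:**
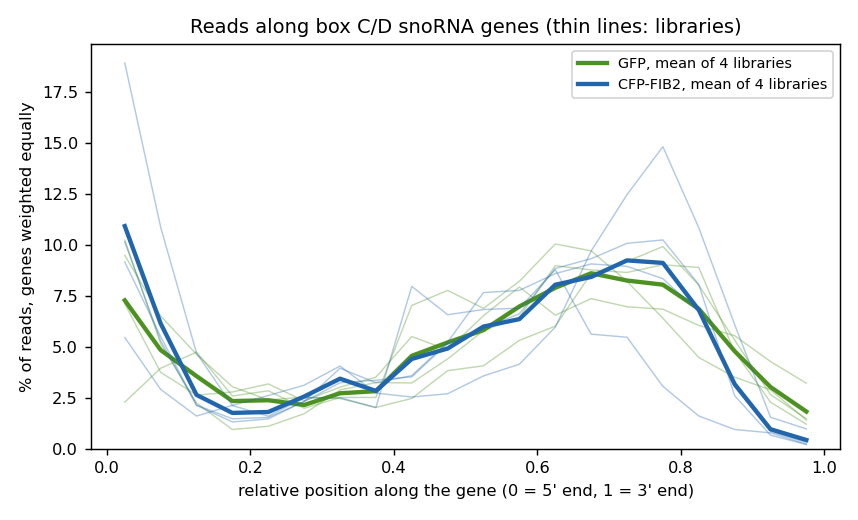
Percent of reads along box C/D snoRNA genes in 20 bins from the 5′ end (0) to the 3′ end (1), each gene weighted equally. Thin lines are libraries and thick lines the mean of 4; both groups show high values in the first bin and between about 0.6 and 0.8 on average, and all CFP-FIB2 lines end below all GFP lines in the last bin.

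Only 1 H/ACA gene passed the test with the set term, and 0 passed without it. Of 36 in the annotation 28 were tested, with a median log2 difference of 1.12 (1.04 with the set term). Values above 0 were found in 25 (26 with the set term), against 60.8% and 51.2% of all regions. Separation was found in 1 (3.57%, against 1.44% of all regions), and 1 was called with the set term (3.57%, against 0.382%). In 9 genes (32.1%) CFP-FIB2 was higher in all 3 sets, against 12% of all regions. In 0 was it lower in all 3, against 10.3%. Within sets the medians were −0.13 in set A, 2.37 in set B and 1.302 in set C. The class median was 0.49 without CFP-FIB2 replicate 2.

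The called H/ACA gene, AT3G02725 (chr3:4411290-4411443, plus strand), had 0, 0, 4.59 and 0 RPM with GFP and 2.57, 34.2, 8.89 and 4.09 RPM with CFP-FIB2. Its groups overlapped at these low levels (set-term difference 2.44 ± 0.47, limma adjusted p = 0.0189), and the call was lost without CFP-FIB2 replicate 2 or 3 or GFP replicate 3 or 4, and with reads in peaks only. AT4G06705, in an intron of AT4G17390, had the largest H/ACA difference without the set term (3.48), with 0, 1.88, 13.0 and 20.7 RPM against 3.18, 282, 70.2 and 161 RPM. It was not called (set-term difference 2.71 ± 0.69, adjusted p = 0.146). AT5G00750, at 3.01 without and 3.19 with the set term, was not called either, nor were AT2G04955 and AT5G01505, at 2.86 and 2.19 without it. At the other end, AT1G06467 had 17.3, 67.8, 31.4 and 62.9 RPM with GFP and 28.8, 39.0, 13.2 and 8.19 RPM with CFP-FIB2, a difference of −1.02 ± 0.91 with overlapping groups. The remaining H/ACA genes with a value below 0, AT1G06553 and AT1G06463, were at −0.15 and −0.08, and the latter turned to 0.09 with the set term.

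The 60 tested snoRNA genes that met neither box rule had a median of 2.06 (1.76 with the set term). Of these, 13 were separated (21.7%, against 1.44% of all regions) and 13 were called with the set term (21.7%, against 0.382%). In 38 (63.3%) CFP-FIB2 was higher in all 3 sets, against 12% of all regions. A gene could pass the filter without any GFP read. Genes with a peak in all 4 GFP libraries were taken alone for box C/D only, not for this class or H/ACA. AT1G08643, named after its values were seen, had 3.15, 2.91, 7.91 and 36.5 RPM with GFP. It reached 311, 233, 349 and 386 RPM with CFP-FIB2, nearly equal in the 4 libraries (set-term difference 4.74, limma adjusted p = 0.000463).

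U3, the box C/D RNA that acts in cleavage of the rRNA precursor rather than in methylation, overlapped between the groups at both tested genes. U3B (AT5G53902) held 25.2, 46.8, 117 and 141 RPM with GFP and 45.0, 4958, 627 and 700 RPM with CFP-FIB2. U3D (AT5G54075) held 4.47, 27.9, 87.2 and 124 RPM and 78.0, 1839, 436 and 1043 RPM. CFP-FIB2 replicate 1 kept both groups from separating, and neither gene was called (set-term differences 2.15 ± 0.81 and 2.90 ± 0.66, limma adjusted p = 0.656 and 0.0735). More reads carried the name AT5G08155, an uncharacterized RNA gene at chr5:21990623-21990808, singled out after its values were seen. It held 35.5, 109, 390 and 1351 RPM with GFP and 121, 60618, 9561 and 9849 RPM with CFP-FIB2, 6.47% of all reads in peaks of replicate 2. Of its 162 25-nt words 99 occur in U3D and 77 in U3B, so some of its reads could belong to those loci. Whether its peaks lie in the shared words was not tested. It was not called (set-term difference 3.29 ± 0.82, adjusted p = 0.128).

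Most of the other gene names that rose carried peaks lying over a snoRNA gene. Among the 57 tested names of other genes with over 50% of their reads over a snoRNA gene, the median was 3.01 (2.44 with the set term). With the set term 16 of them were called (28.1%, against 0.382% of all regions). Nuclear mRNAs without any such read, 17183 in all, had a median of 0.13 (0.02 with the set term) and 1 call (0.00582%). All 8 non-snoRNA genes with the largest separated differences except AT3G07215 belonged to the first kind. Lack of overlap and a call were conditions for naming these 8 and are no findings about them.

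AT2G35750, an uncharacterized protein gene, had 33.4, 96.3, 108 and 264 RPM with GFP and 1131, 6957, 1320 and 2800 RPM with CFP-FIB2, and its reads lay over AT2G35747 (77.0%) and AT2G08770 (22.8%). The set-term difference was 4.01 ± 0.74 (limma adjusted p = 0.0131). Its call was lost without any one of CFP-FIB2 replicates 1 and 2 or GFP replicates 1, 3 and 4 (adjusted p 0.0505 to 0.16). AT2G43110, the host of AT2G43137, went from 5.25, 27.2, 16.6 and 25.4 RPM to 150, 2750, 258 and 278 RPM, with 48.0% of its reads over that snoRNA and the rest over AT2G43138, AT2G43139 and AT2G43141, further box C/D genes beside it. Its call (4.37 ± 0.74, adjusted p = 0.0055) was lost without CFP-FIB2 replicate 2 (0.0758) or GFP replicate 3 (0.0652). The noncoding names AT5G02645, AT1G16635 and AT4G06225 had set-term differences of 4.58, 3.69 and 3.26, with all of their reads over snoRNA genes. For AT1G16635 and AT4G06225 these were AT1G05247 and AT4G06240 alone, and for AT5G02645 they were AT5G02675 (57.2%), AT5G02665 (32.2%) and AT5G02655 (10.7%), all of the box C/D class. The first call held whichever library was left out. The other two were lost without any one of CFP-FIB2 replicates 1 and 2 or GFP replicates 3 and 4, and AT1G16635 also without GFP replicate 1 (adjusted p 0.0899 to 0.246).

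For 2 protein-coding names the remaining reads could be read apart. AT1G79520, a cation efflux family gene whose exons hold AT1G09883 and AT1G09877, went from 10.2, 63.2, 75.8 and 158 RPM to 327, 1457, 1313 and 1591 RPM (set-term difference 3.39 ± 0.70, adjusted p = 0.033). AT3G07860, a ubiquitin-like gene over AT3G02045, went from 4.20, 9.93, 5.36 and 14.2 RPM to 117, 2225, 51.0 and 69.8 RPM (4.40 ± 0.81, adjusted p = 0.0134). Once peaks over the snoRNA genes were given to those genes, the differences were −0.22 and −0.44 with the set term (adjusted p = 0.979 and 0.966), so neither call rests on the rest of the gene. Leaving out 1 library also ended the call of AT1G79520 in every case but GFP replicate 2 (0.0572 to 0.289), and that of AT3G07860 for CFP-FIB2 replicates 1 and 2 and GFP replicate 3 (0.0812 to 0.153).

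**Figure D5:**
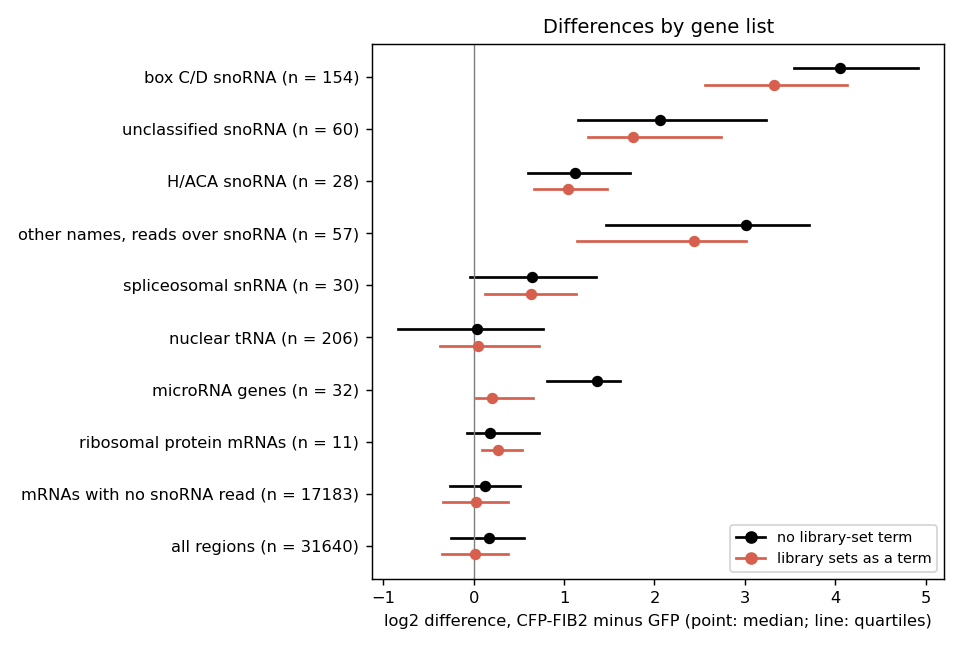
Median (point) and quartiles (line) of the log2 difference between CFP-FIB2 and GFP for 10 lists, without and with library sets as a term. Box C/D snoRNA has the highest median, 4.05 and 3.32, names with reads over snoRNA genes follow at 3.01 and 2.44, and all regions lie at 0.17 and 0.02.

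The 9 called regions without a read over an annotated snoRNA gene were examined by sequence. A window reaching 75 nt to each side of the strongest CFP-FIB2 peak was searched on the sense strand for a box C (ATGATGA or GTGATGA) followed by CTGA after 40 to 100 nt. The pair was found in 3 of the 9 windows, in 182 of 30945 windows (0.588%) of tested nuclear regions without a snoRNA read, and in 86 of 154 windows (55.8%) of box C/D genes, many of which have a mismatch in box C. It was found in 0 of 28 windows of H/ACA genes. Box motifs had assigned genes to these classes, with box C/D taken first, so the shares of both classes were largely set by the classing. A match is a description of the letters and not evidence of a snoRNA. The 3 stretches are printed because they carry the peaks of regions that rose, 5′ to 3′ from TAIR10.1 with both matches in capitals: chr1:27984787-27984876 (minus strand), chr3:2297505-2297579 (minus) and chr1:10502646-10502758 (minus).
Intergenic14652: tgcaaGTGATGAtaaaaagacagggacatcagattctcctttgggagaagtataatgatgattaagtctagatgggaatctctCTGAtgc
AT3G07215: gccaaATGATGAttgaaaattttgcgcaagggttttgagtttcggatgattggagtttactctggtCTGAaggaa
AT1G09075: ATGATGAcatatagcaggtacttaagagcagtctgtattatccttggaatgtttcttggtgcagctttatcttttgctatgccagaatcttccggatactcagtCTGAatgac
The strongest peak of Intergenic14652 lay 22 nt from the snoRNA gene AT1G74456 (chr1:27984745-27984826, minus strand). The stretch printed for it runs into that annotated gene, and its CTGA lies inside the gene. Intergenic14652 had 0, 1.20, 3.66 and 33.5 RPM with GFP. With CFP-FIB2 it had 130, 232, 198 and 370 RPM, all above GFP (set-term difference 4.98 ± 0.63, limma adjusted p = 0.00056). The noncoding gene AT3G07215 had 2.63, 5.14, 23.8 and 90.6 RPM with GFP and 133, 667, 637 and 978 RPM with CFP-FIB2. Its set-term difference was 3.96 ± 0.64 (limma adjusted p = 0.00378, and 0.0579 without CFP-FIB2 replicate 1). Lack of overlap and a call were conditions for naming Intergenic14652 and AT3G07215 and are no findings about them. AT1G09075 was low throughout, at 0 to 2.61 RPM with GFP and 6.81 to 25.5 RPM with CFP-FIB2 (2.30 ± 0.50, adjusted p = 0.0498), and leaving out any library but GFP replicate 2 ended the call (0.0717 to 0.272), as did fitting only the 8 compared libraries (0.1), giving peaks to the snoRNA genes (0.0698) or leaving out TMM (0.396).

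Of the called regions without the pair, AT5G61310, which encodes a subunit Vc of cytochrome c oxidase, was the 1 mRNA. It had 1.31, 3.08, 8.08 and 7.54 RPM with GFP and 76.3, 427, 29.1 and 54.6 RPM with CFP-FIB2. The groups were separate, and the call held in every variation of the set-term fit (3.96 ± 0.61, limma adjusted p = 0.0025, highest 0.043). The antisense RNA gene AT4G00975 had 9.98, 10.8, 3.91 and 3.63 RPM and 86.3, 653, 15.7 and 23.0 RPM (3.58 ± 0.74, adjusted p = 0.033), lost without any one of CFP-FIB2 replicates 1, 2 and 4 or GFP replicates 1, 3 and 4 (0.0581 to 0.299). AT1G09915 overlapped between the groups, with 10.5, 26.4, 51.8 and 342 RPM with GFP and 113, 2403, 2470 and 3181 RPM with CFP-FIB2 (3.36 ± 0.70, adjusted p = 0.0346), and its call was lost without any library but GFP replicate 2 (0.0573 to 0.334).

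Intergenic34093 lies at chr3:14197213-14197674, ending just before the 18S rRNA gene AT3G41768 that starts at 14197677, in the transcribed leader of the rRNA precursor where U3 is known to pair. It had 22.6, 73.6, 58.4 and 54.5 RPM with GFP and 564, 803, 109 and 565 RPM with CFP-FIB2 (3.19 ± 0.66, adjusted p = 0.0331). CFP-FIB2 replicate 3 stood nearest to GFP, and the call held only when it or GFP replicate 2 was the library left out (0.0542 to 0.294 otherwise). It was also lost with only the 8 compared libraries in the fit (0.0918) and without TMM (0.1). Intergenic8910, 27 nt from the snoRNA gene AT1G07393, ranged from 0 to 4.64 RPM and from 1.97 to 63.5 RPM, with overlap (2.60 ± 0.53, adjusted p = 0.0308, and 0.0613 to 0.239 without any one of CFP-FIB2 replicates 2 to 4 or GFP replicates 1, 3 and 4, 0.0558 with 8 libraries and 0.17 without TMM). Intergenic55921 had no peak in any GFP library and 11.2, 1.39, 2.22 and 2.73 RPM with CFP-FIB2 (adjusted p = 0.0384, 0.0658 to 0.395 without any library but CFP-FIB2 replicate 2, and 0.0715 with 8 libraries).

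The single region that fell was Intergenic55880 (within chr5:13498003-13500935, minus strand). It held 5.78, 2.57, 3.57 and 3.63 RPM with GFP and 0, 0.520, 0 and 0.682 RPM with CFP-FIB2 (set-term difference −1.93 ± 0.40, limma adjusted p = 0.0326). The call did not survive leaving out CFP-FIB2 replicate 1, 2 or 3 or GFP replicate 1, 3 or 4 (adjusted p 0.0967 to 0.274), nor fitting only the 8 compared libraries (0.158).

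One tRNA isoacceptor took a large share of the reads in some libraries. The gene that dominated CFP-FIB2 replicate 4, AT1G09110 (chr1:2939417-2939488, plus strand), encodes tRNA-Glu with anticodon TTC and shares all of its 25-nt words with other copies. Its sequence is printed with bases 1 to 6, the position of the strongest peak in that library, in capitals.
AT1G09110: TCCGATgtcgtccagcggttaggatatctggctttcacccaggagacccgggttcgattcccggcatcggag
It took 0.0738%, 0.0718%, 2.89% and 5.43% of the reads in GFP replicates 1 to 4 and 0.0204%, 1.52%, 9.71% and 32.8% in CFP-FIB2 replicates 1 to 4. The level followed the library sets: the 3 compared libraries of set A lay below 0.1% and the other compared libraries above 1%, in both groups. In sets B and C the strongest peak covered bases 1 to 5 or 1 to 6 and held over 99.9% of the gene's reads, whereas in set A it lay at bases 36 to 38 or 36 to 41. With the set term the difference was 0.21 ± 0.81 (limma adjusted p = 0.984). AT1G75970, with 4 different bases, had 24.4, 25.2, 8327 and 5862 RPM with GFP and 49.5, 3842, 8195 and 145112 RPM with CFP-FIB2. Together the 9 copies with a peak held 41.1% of the reads of CFP-FIB2 replicate 4. The 206 tested nuclear tRNA genes had a median difference of 0.04, with 1 separated (0.485%, against 1.44% of all regions) and 0 called.

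Ribosomal RNA is the substrate of the C/D particles. Nuclear rDNA took 55.4%, 54.8%, 54.8% and 39.8% of the reads with GFP and 60.1%, 42.1%, 35.1% and 38.1% with CFP-FIB2, with overlap (exact permutation p = 0.429). The strongest single names were AT3G06365, over the 25S region, with a mean of 21.1% and 15.9% of the reads, and the 18S gene AT3G41768, with 13.0% and 12.9%. AT3G06355, between the 18S gene and the 25S region, followed with 3.23% and 3.30%. For AT3G06365 and AT3G41768 the sign changed with the scaling, and neither the log2 differences (0.01, 0.48 and 0.65) nor those with the set term (0.09, 0.51 and 0.61) passed. A mitochondrial intergenic region, Intergenic63803, held 10.6% of the reads of CFP-FIB2 replicate 1 and 0.192% to 0.564% of those of the other 7 libraries.

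The mRNAs of the C/D particle's own proteins showed no common direction. Of 9 listed genes 7 were tested, with 1 separated (FIB1, 14.3%, against 1.44% of all regions) and 0 called with the set term. The values of FIB1 and FIB2 say little about their mRNAs, because 99.2% and 86.5% of their reads lay over intronic snoRNA genes. NOP56 (AT1G56110), a core protein gene, had 0.788, 6.51, 0.340 and 228 RPM with GFP and 6.96, 0.780, 268 and 255 RPM with CFP-FIB2, high only in set C of either group. Its paralogue AT3G12860 had a difference of −0.07 ± 0.56, the NOP58-type genes AT5G27120 and AT3G05060 of −0.60 ± 0.74 and −0.98 ± 0.57, and AT4G22380, for a smaller core protein, of 0.69 ± 0.55. For the H/ACA particle 4 of 5 genes were tested and 0 called: NAP57 was at 0.14 ± 0.71, the GAR1 genes AT3G03920 and AT5G18180 at 0.09 ± 0.53 and 0.70 ± 0.73, and NHP2 (AT5G08180) at 2.08 ± 1.24. Of the reads of the NHP2 name 92.8% lay over snoRNA genes, 40.6% over the intronic H/ACA gene AT5G01505 and the others over AT5G01495 and AT5G01515, and with those reads removed the difference was −0.00. Nucleolin genes NUC-L1 and NUC-L2 stood at 0.17 ± 0.75 and −1.23 ± 0.79, and overlapped between the groups. For AT3G12860, NAP57, AT3G03920 and NUC-L1 the sign changed with the pseudocount or the scaling. The signal recognition particle RNA AT7SL-1 had 16.5, 58.4, 0.510 and 1.16 RPM with GFP and 48.9, 1.65, 0.556 and 0.682 RPM with CFP-FIB2 (−0.82 ± 1.13).

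Spliceosomal snRNA (30 genes tested of 82) had a median of 0.65, and 0.63 with the set term, with 4 separated (13.3%, against 1.44% of all regions) and 0 called. With the set term 26 of the 30 were above 0, against 51.2% of all regions, and 8 (26.7%) were higher in all 3 sets, against 12%. For microRNA genes (32 of 326) the median was 1.36 without and 0.20 with the set term, with 0 separated and 0 called, and only 1 of the 32 was higher in all 3 sets. The 11 tested mRNAs annotated as 60S or 40S ribosomal proteins had a median of 0.18, again with 0 called. The label of whole seedlings was checked with 9 leaf mRNAs, all of which had peaks in all 8 libraries. Those of Rubisco small subunits, Rubisco activase and light-harvesting proteins had a median of 0.84, and 0.49 with the set term, with 0 separated and 0 called. Above 0 were 8 of 9, against 60.8% of all regions, and 9 of 9 with the set term, against 51.2%. CFP-FIB2 was higher in all 3 sets in 4 (44.4%, against 12%) and lower in all 3 in 0 (against 10.3%). RBCS1A (AT1G67090) had 12.3, 24.3, 27.5 and 49.6 RPM with GFP and 25.1, 61.8, 93.9 and 87.1 RPM with CFP-FIB2. PYK10 (AT3G09260), a root and hypocotyl mRNA, was at 0.02. In these bulk samples, fewer cells with an RNA and less of it per cell cannot be told apart, and the part of leaf mRNA in any other result was not tested.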

How the data were processed

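Peak lists were deposited for each library. Each peak carries a p-value that the authors computed, per the file values, and a name made of a region and a number, taken here as the read number; across peaks it fell as the p-value rose. DESeq2 is named, with no version, in the submitters' processing notes. For aligner, peak caller and build the labels give nothing. Of 629647 gene-named peaks, 620145 matched TAIR10.1 annotation, 99.9% of the nuclear ones inside their gene.

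Reads were summed per region name and scaled by TMM, log2(RPM + 1) was taken, and limma 3.58.1 (R 4.3.3) with a mean trend was fitted to 12 libraries, regions with at least 10 reads at median depth in 4 libraries and 15 in all being tested, with Benjamini-Hochberg adjustment at 0.05. A second fit had the 3 library sets as a term. Class shares used peaks reduced for overlap and exact permutation tests, two-sided, over 70 splits (Python 3.11.15, scipy 1.17.1). Same-numbered libraries did not all deviate together (r = 0.58, −0.25, 0.21 and 0.44), so numbers were not taken as pairs. Replicates differed beyond counting noise (chi-square per degree of freedom 55.7 to 390).

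Named regions were the 10 snoRNA genes with the largest rise among those separated in all 8 libraries, the up to 8 other genes, 5 intergenic regions and 5 falls that were also past the threshold in either fit, 5 H/ACA rises and 3 falls, the 5 regions with most reads and any over 10% in a library, and the snoRNP, nucleolin, U3 and SRP lists. The 5 further called regions with no read over a snoRNA gene, AT5G08155, AT1G75970 and AT1G08643 were chosen after their values were seen. Members and lists were chosen with earlier results of these data known. Box C/D and H/ACA classes came from box motifs in the gene sequence, or from names.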

Additional observations from a re-analysis of the deposited data

Results flagged for a closer look

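Among 68 groups of 4 libraries, 4 had a highest or lowest library far from the others, where chance flags about 1 in 20. The nuclear rDNA share of GFP replicate 4, 39.8%, was below the 54.8% to 55.4% of the other GFP libraries. U60.1F (AT5G52471) had 1.60 RPM in GFP replicate 4 and no peak in the other three. AT2G43137 had 923 RPM in CFP-FIB2 replicate 2 and 41.2 to 53.1 RPM in the others. AT1G79520 had 327 RPM in CFP-FIB2 replicate 1 and 1313 to 1591 RPM in the others. Causes were not tested.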

How the results depend on the processing

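The medians of the 3 snoRNA classes and of snRNA kept their sign in all 31 recomputations each. The median of all regions, near 0, differed in sign in 7 of 31 (−0.17 with library sets as a term and reads in peaks only) and that of nuclear tRNA in 11 of 31. The box C/D median ranged from 2.89 to 4.96 and the H/ACA median from 0.45 to 1.85. Against 0 called higher, pseudocount 0.5 gave 1, a filter of 50 reads gave 1 and the library sets gave 121 (1 lower). The replicate block gave 156, although same-numbered libraries did not all deviate together and were not taken as pairs. With the sets, calls were 98 (1 lower) with peaks given to the snoRNA gene they overlap, 120 with 8 libraries only, 112 (5 lower) with reads in peaks only, and, with 1 library left out, 66, 45, 96 and 85 for CFP-FIB2 replicates 1 to 4 and 79, 166, 45 and 66 for GFP replicates 1 to 4 (up to 2 lower). Presence of a peak gave 98 higher and 22 lower. The read-weighted position difference turned from 0.0519 to −0.034 with each peak counted once, and the gene-mean position, −0.0362, to −0.0664 to 0.00491 with a library left out. Reversed signs were these: AT3G07860 at −0.39 (−0.44 with sets) and AT1G79520 at −1.01 (−0.22) with peaks given to the snoRNA, and AT5G08180 at −0.000508. AT1G06463 was at 0.0943 with pseudocount 5, 0.0928 with sets, 0.82 with peaks given to the snoRNA and −1.01 to 0.43 with a library left out. AT3G06365 was at −0.51 without TMM, −0.36 without the dominant tRNA, −0.00628 with median-of-ratios factors, −0.00300 without the filter, −0.11 with 50 reads, −0.0263 with overlapping peaks reduced, −0.0257 with peaks given to snoRNA genes, and −0.20 to 0.28 with a library left out. AT3G41768 was at −0.0414 without TMM and −0.10 to 0.84 with a library left out. Without TMM and without the dominant tRNA, NAP57 (AT3G57150) was at −0.24 and −0.16, AT3G03920 at −0.12 and −0.0888, and NUC-L1 (AT1G48920) at −0.25 and −0.14. AT3G12860 was at 0.0176 with pseudocount 0.5. With a library left out, values ranged from −0.49 to 0.18 for AT1G06553, −0.39 to 0.34 for AT3G12860, −0.28 to 0.55 for NAP57, −0.34 to 0.36 for AT3G03920, −0.0937 to 0.47 for NUC-L1 and −2.002 to 0.16 for AT7SL-1 (AT4G02970). The chloroplast protein-coding share difference, −0.0104 points, became 0.00465 without the dominant tRNA in the denominator and −0.0916 to 0.0627 with a library left out. The cause of these changes was not tested. Depth limits regions under about 10 reads, where 1 peak decides a value.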
